A study of Mus musculus with 35 samples.

Results

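Transcripts of the general splicing machinery were followed in single mouse embryonic fibroblasts that did or did not carry micronuclei. The set holds the genes of the Sm core proteins, the U1 and U2 small nuclear ribonucleoproteins (snRNPs), the SF3a and SF3b complexes, the tri-snRNP and Prp factors, the SR proteins, the heterogeneous nuclear ribonucleoproteins (hnRNPs) and 3 factors of 3′ splice site recognition and mRNA export. Members were taken by gene symbol alone (Srsf, Hnrnp, Sf3a, Sf3b, Snrp and Prpf families with Sart1, Sart3, U2af1, U2af2 and Alyref, leaving out Snrpn); the rule uses no measured value. This gave 71 of the 19085 gene entries, of which 69 are annotated as protein coding and 2 as processed pseudogenes.

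The cells were C57Bl/6J fibroblasts grown at 3% oxygen, given 1 Gy, plated again on dishes with a membrane base 32 h later, and stained for DNA with PicoGreen at 48 h, when single cells were cut out by laser. One group held 21 cells with micronuclei, small enclosed bodies of DNA apart from the nucleus that form when a chromosome or fragment lags in division, and the other held 14 cells without them. Both groups had been irradiated and no unirradiated cell was included, so the contrast is between the 2 outcomes of the same dose. Polyadenylated RNA of each cell was sequenced by Smart-seq2, which reads whole transcripts and adds no molecular identifiers, and reads were counted per gene. Each library is 1 cell and the labels name neither culture nor embryo. A group therefore counts as 1 sample, and no test across replicates can be made. Intervals of summed CPM below cover counting error only. Those of shares of cells take the cells of 1 sample as independent draws and do not measure spread between replicates.

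The median depth was 281800 reads on genes in micronucleated cells (57514 to 1794113) and 736715 in cells without micronuclei (56766 to 2023111). Of 9 fibroblast markers, Col1a1 and Vim had at least 5 reads in 21 of 21 micronucleated cells and 14 of 14 cells without micronuclei. In the same order the numbers were 20 and 14 for Col1a2 and for Thy1, 15 and 10 for Col3a1 and 10 and 7 for Dcn. They were 9 and 4 for Pdgfrb, 7 and 1 for Pdgfra and 0 and 1 for Lum. Micronucleated cell 6 had 2 of the 9. Of epithelial and neural markers, Krt19 reached 5 reads in 11 and 7 cells, Tubb3 in 11 and 8, Stmn2 in 9 and 4 and Sox2 in 8 and 6. The remaining ones did so in at most 1 cell of a group. Micronucleated cell 10 also had at least 5 reads of 10 of 10 macrophage markers, with Lyz2 at 13946 CPM (reads scaled to a common library total), and 2 further micronucleated cells had 2 of them; every other cell had at most 1. Another 6 cells, 4 with and 2 without micronuclei, had fewer than 4000 genes or over 9% mitochondrial reads. Calls at 2-fold that end or begin without these cells, and called ratios that move by over 1.5 times, are given both ways; the part of these features in other results was not tested.

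Splicing removes introns in a sequence of assemblies. The U1 snRNP pairs with the 5′ splice site, U2AF and the U2 snRNP with its SF3a and SF3b complexes settle on the 3′ splice site and branch point, and the tri-snRNP then joins to form the catalytic spliceosome. Each of these snRNPs, apart from U6, is built on a ring of Sm proteins. SR proteins bind exonic enhancers and mostly favour inclusion of an exon, whereas hnRNPs coat nascent transcripts and many of them oppose inclusion; the relative level of both families is known to tune alternative splicing in many cell types.

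Promoter sequences are shown for 6 members, the hnRNP gene with the highest level per length of main transcript and the 5 genes whose difference between the groups passed 2-fold both in summed reads and with equal weight for every cell and in every leave-out of a cell. They run 5′ to 3′ on the gene's strand from 100 bases before to 20 bases after the start of the main transcript, from RefSeq on GRCm38.p6. Capitals mark letters of the motifs searched (below), on either strand.
Hnrnpa2b1: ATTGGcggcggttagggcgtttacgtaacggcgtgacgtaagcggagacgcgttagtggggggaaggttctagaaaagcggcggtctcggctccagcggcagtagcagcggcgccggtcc
Sart1: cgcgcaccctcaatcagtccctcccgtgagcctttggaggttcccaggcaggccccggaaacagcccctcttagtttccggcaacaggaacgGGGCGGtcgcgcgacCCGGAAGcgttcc
Prpf39: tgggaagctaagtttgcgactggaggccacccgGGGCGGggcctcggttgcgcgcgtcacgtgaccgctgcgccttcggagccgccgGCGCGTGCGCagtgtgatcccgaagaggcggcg
Alyref: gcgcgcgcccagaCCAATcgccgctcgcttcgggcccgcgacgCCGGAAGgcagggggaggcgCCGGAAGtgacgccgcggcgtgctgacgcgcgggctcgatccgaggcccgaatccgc
Srsf2: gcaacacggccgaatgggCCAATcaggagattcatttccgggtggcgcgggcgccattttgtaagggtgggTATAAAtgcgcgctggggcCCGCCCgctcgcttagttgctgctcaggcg
Hnrnpd: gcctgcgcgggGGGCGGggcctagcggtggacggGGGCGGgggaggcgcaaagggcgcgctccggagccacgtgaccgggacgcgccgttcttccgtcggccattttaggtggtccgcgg
The windows lie at chr6:51469826-51469945 (Hnrnpa2b1, minus strand), chr19:5388684-5388803 (Sart1, minus), chr12:65036234-65036353 (Prpf39, plus), chr11:120598346-120598465 (Alyref, minus), chr11:116853075-116853194 (Srsf2, minus) and chr5:99978919-99979038 (Hnrnpd, minus). Of the 71 symbols, 59 matched a RefSeq promoter entry, with 77 start windows that reach from 250 bases before to 50 after the start. The ETS core CCGGAAG stood in 35.1% of these windows and in 8.86% of all 32851 windows. The NRF1 motif (GCGCA and GCGC with 1 free base between them, searched on both strands like the others) stood in 23.4% of the members' windows and in 4.60% of all windows, and the GC box GGGCGG in 68.8% against 35.7%. The CCAAT box was in 49.4% of the members' windows and 37.4% of all, the cAMP response element TGACGTCA in 2.60% and 1.79%, the YY1 letters AAGATGGCG in 2.60% and 1.40%, and the TATA letters TATAAA in 9.09% and 13.6%. Among the printed stretches, Alyref carried the ETS core at 2 places and Srsf2 was the one with TATAAA, 29 bases before its start. These matches are a description of letters; whether a factor binds there was not measured.

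All 71 members had at least 1 read in these cells. A gene was called measured when it reached 5 CPM over all cells together and at least 5 reads in at least 5 cells, which held for 67 members and for 8390 genes in all. The members drew 0.817% of reads in micronucleated cells and 0.843% in cells without micronuclei. The 4 members under the limit were Srsf4, Srsf1, Srsf12 and the pseudogene entry Hnrnpa1l2-ps. Srsf4, an SR protein gene, had 35 reads in micronucleated cells and 2 in cells without micronuclei, and 62.2% of these reads came from micronucleated cell 9. Srsf1, the classic member of the SR family, had 2 reads in micronucleated cells and 12 in cells without micronuclei. Srsf12 and Hnrnpa1l2-ps had 1 read each, both in micronucleated cells.

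The measured members were found in more cells than measured genes at large. The median member had at least 5 reads in 28 of the 35 cells, against 16 for the median measured gene, and its level over all cells was 79.2 CPM against 37.98 CPM. At least 30 cells had 5 reads of 26 members, which is 38.8% of the measured members against 14.5% of measured genes. Hnrnpa2b1, Hnrnpk and Snrpg reached 5 reads in every cell, which is 4.48% of the measured members, close to the 4.15% of all measured genes. Members also varied less from cell to cell, with a median coefficient of variation (CV, the SD of CPM over cells divided by its mean) of 0.926 against 1.54. By level, the median CV was 1.26 for 19 members and 1.88 for 4927 other genes from 5 to 50 CPM, and 1.07 for 20 members and 1.30 for 1567 others from 50 to 100 CPM. From 100 to 200 CPM it was 0.809 for 15 members and 1.004 for 920 others, and from 200 to 1000 CPM it was 0.662 for 13 members and 0.696 for 804 others.

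To compare genes with each other, CPM over all cells was divided by the length of the main transcript in kilobases. On this scale Sm core genes led the set. Snrpb, which encodes the SmB subunit, stood at 566 CPM per kilobase, and Snrpe (SmE) at 544. Snrpd2 (SmD2) followed at 186, Snrpd1 (SmD1) at 182 and Snrpf (SmF) at 137 CPM per kilobase. The hnRNP genes among the first 10 were Hnrnpa2b1 at 313, Hnrnpk at 184 and Hnrnpa1 at 149 CPM per kilobase. The SR genes Srsf2 at 128 and Srsf11 at 118 CPM per kilobase completed them. These 10 genes together held 40.6% of the members' reads. The lowest measured coding member was Hnrnpul2 at 2.47, so the range of levels per length was 229-fold. Dividing by all annotated exon bases instead left Snrpb and Snrpe first and second and put Hnrnpa2b1 seventh.

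Within each role the spread of levels per kilobase was wide. Among the U1 and U2 particle genes the highest was Snrpa1 (the U2 A′ protein) at 109 and the lowest Snrpb2 (U2 B″) at 33.4. Among the SF3a and SF3b genes the highest was Sf3b6, whose protein contacts the branch point, at 59.3 and the lowest Sf3a2 at 4.82. The tri-snRNP and Prp genes, with a median of 8.66 CPM per kilobase, reached 46.9 (Prpf38a) and went down to 3.67 (Sart1). U2af1, the small subunit of the factor that reads the 3′ splice site, stood at 93.8 and its large partner U2af2 at 6.86. By reads, hnRNPs held 33.0% of the members' total, the Sm core 20.6%, SR proteins 19.4%, SF3a and SF3b 10.5%, tri-snRNP and Prp factors 10.3%, U1 and U2 particle genes 4.26%, and U2af1, U2af2 and Alyref together 1.82%.

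**Figure D1:**
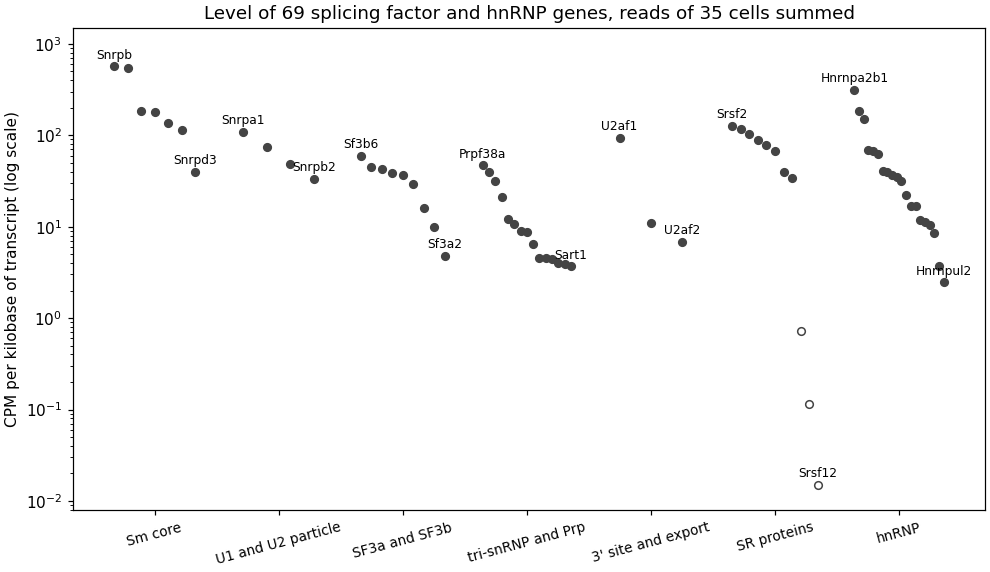
Level of the 69 protein-coding members over all 35 cells, in CPM per kilobase of main transcript on a log axis, grouped by role; filled points are measured members and open points the 3 coding members under the detection limit. Snrpb and Snrpe lie highest at 566 and 544, and the open points, all SR protein genes, below 1 CPM per kilobase.

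The Sm ring takes its subunits in equal number, yet their summed transcript levels per kilobase were far from equal. By all annotated exon bases, Snrpb was at 333, Snrpe at 199, Snrpf at 137 and Snrpd3 at 35.2 CPM per kilobase. The size of the differences thus depends on the length used. Per kilobase of main transcript, Snrpb was the highest of the ring in 12 of 21 micronucleated cells and 6 of 14 cells without micronuclei. Snrpe was highest in 9 micronucleated cells and 7 cells without micronuclei, and Snrpd1 in 1 cell without micronuclei. Snrpd3, the SmD3 gene and lowest of the ring, made up 2.25% of the ring's summed level per kilobase. The steadiest members over the 35 cells were Snrpd2 (CV 0.419), Snrpb (0.513), Hnrnpa2b1 (0.549), Snrpf (0.558) and Hnrnpk (0.568).

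The most uneven members had high peaks in single cells. Prpf4, a tri-snRNP protein gene, had a CV of 3.51 and Hnrnph2 one of 2.24, and both peaked in micronucleated cell 6, at 912 and 1085 CPM. That cell had 2391 genes with a read, the fewest of all, and 25 members with 5 reads, also the fewest. Prpf18, a factor of the second splicing step, had a CV of 3.04 and cell 8 of those without micronuclei held 72.9% of its reads. Sart3, which reloads U6 onto U4, had a CV of 2.12 and Prpf40b one of 2.02. In 19 of the 67 measured members more than 25% of all reads came from 1 cell. Hnrnph2 was not among them, with its largest share, 21.1%, in cell 7 of those without micronuclei. The share over all measured genes was not computed, so this count does not set the members apart from genes at large.

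Pairs of related genes were compared cell by cell on the scale per kilobase of main transcript. Hnrnpa3 was below Hnrnpa1 in 21 micronucleated cells and in 13 cells without micronuclei, with neither read in the remaining cell. Hnrnpdl, a close relative of Hnrnpd, was above it in 18 micronucleated cells and 11 cells without micronuclei. Hnrnph2 was below Hnrnph1 in 17 micronucleated cells and 12 cells without micronuclei, and Hnrnpul2 below Hnrnpul1 in 16 and 10. Among SR genes, Srsf9 was above Srsf1 in 21 micronucleated cells and 10 cells without micronuclei, and Srsf6 above Srsf4 in 19 and 13. Srsf1 and Srsf4 were under the limit for a measured gene, with 14 and 37 reads over all cells. The order of these 2 pairs therefore rests on near-absent counts, whose cause was not tested. For each pair named so far the order also held over summed reads per annotated exon base. Hnrnpa2b1 was above Hnrnpa1 in 20 micronucleated cells and 12 cells without micronuclei, but its summed level was 2.10 times that of Hnrnpa1 per kilobase of main transcript and 0.872 times per kilobase of all exons, so the order depends on the length used. The same was so for Hnrnph1 over Hnrnpf (1.87 and 0.987 times) and for Srsf5 over Srsf6 (1.32 and 0.706 times). Srsf7 and Srsf3 (higher in 15 and 18 of all cells), Prpf38b and Prpf38a (18 and 15), and Snrpb2 and Snrpa (14 and 20) traded places between cells. Hnrnpll, known from lymphocytes, was below its broadly expressed relative Hnrnpl in 12 micronucleated cells and 12 cells without micronuclei.

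**Figure D2:**
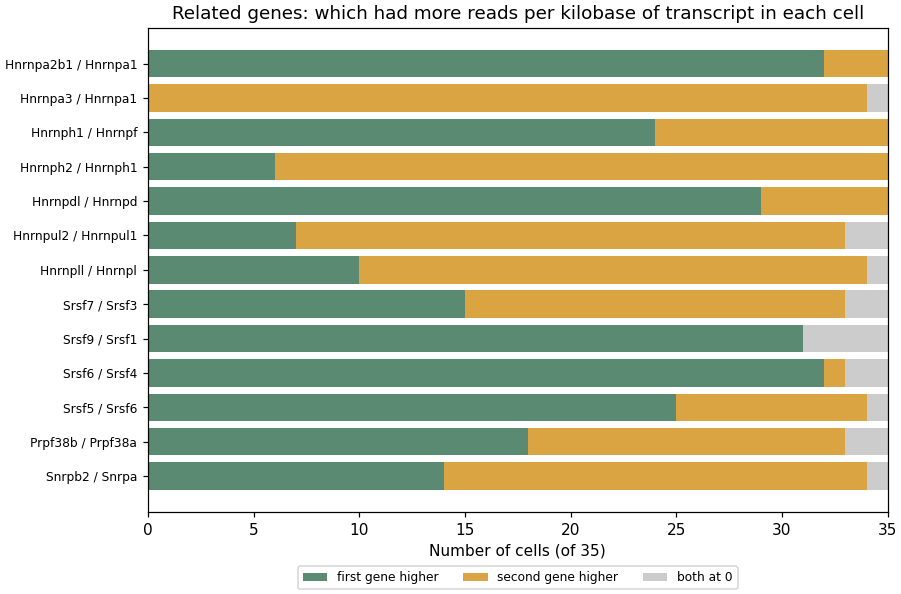
Number of the 35 cells in which the first or the second gene of each related pair had more reads per kilobase of main transcript; grey marks cells with no read of either. Hnrnpa1 leads Hnrnpa3 in 34 of the 35 cells, whereas Prpf38b and Prpf38a lead in 18 and 15.

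The share of the transcriptome taken by the whole set differed little between the groups. The members' CPM summed per cell had a median of 7831 in micronucleated cells (SD 1829, from 4818 in cell 18 to 12536 in cell 19, n = 21) and 8360 in cells without micronuclei (SD 2355, from 4862 in cell 1 to 13259 in cell 8, n = 14). Their medians lay closer together than 1 SD of each group, and the groups overlapped over nearly all of their range. Members with at least 5 reads numbered 52 in the median micronucleated cell (SD 10.7, 25 to 63) and 52.5 in the median cell without micronuclei (SD 10.4, 29 to 60). After each cell was thinned to 119337 reads, which left out 4 micronucleated cells and 1 cell without micronuclei, the medians were 41 (SD 7.30, n = 17) and 39 (SD 7.77, n = 13). By role, summed CPM of hnRNP genes had medians of 2451 and 2534 in cells with and without micronuclei, of Sm core genes 1569 and 1635, and of SR protein genes 1335 and 1465. In the same order the medians were 336 and 350 for U1 and U2 genes, 975.2 and 852 for SF3a and SF3b, 127 and 134 for U2af1, U2af2 and Alyref, and 852 and 732 for tri-snRNP and Prp genes. For each role the medians lay closer together than the SD of either group. For the tri-snRNP and Prp genes 5 micronucleated cells lay above every cell without micronuclei and 1 lay below. The 5 include cell 6, of few genes, cell 10, with macrophage markers, and cell 11, at 1069.27 CPM against 1069.04 CPM. When these genes were taken as a share of the members' CPM, 0 micronucleated cells lay above and 1 below. As a share of the members' CPM, hnRNP genes had a median of 33.2% (SD 3.71) in micronucleated cells and 29.01% (SD 7.98) in cells without micronuclei. Micronucleated cell 6 was lowest for SR transcripts, at 245 CPM.

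Between the groups, single genes differed in both directions. For each gene, the summed reads of a group were scaled to CPM and set as log2 of micronucleated over other cells after 1 CPM was added to both. Of the 67 measured members 38 had a ratio above 0 and 29 below, or 56.7% above, beside 56.0% of all measured genes. The median log2 ratio of the members was 0.10 and that of all measured genes 0.15. With TMM scaling these medians were -0.04 and 0.01, a shift of over 0.1 on the log2 scale that moves all genes alike. A ratio of at least 2-fold was reached upward by 6 members (8.96%), where 22.9% of all measured genes reached it, and downward by 6 members (8.96%), where 14.7% did. In either direction 17.9% of members passed, against 37.7% of measured genes; by level, 36.8% against 46.6% from 5 to 50 CPM, 15% against 35.6% from 50 to 100 CPM, 0% of 15 members against 23.4% from 100 to 200 CPM, and 15.4% against 9.33% of the other genes from 200 to 1000 CPM. A deep cell weighs more in a sum, so a sign was called held when it was the same in summed reads, with equal weight per cell, and without each of the 35 cells in turn. It was held upward by 23 members (34.3%, all genes 33.5%) and downward by 14 (20.9%, all genes 20.1%). With TMM scaling it was held by 15 and 18 members. The share of all measured genes with TMM is not given here, so this change does not set the members apart.

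**Figure D3:**
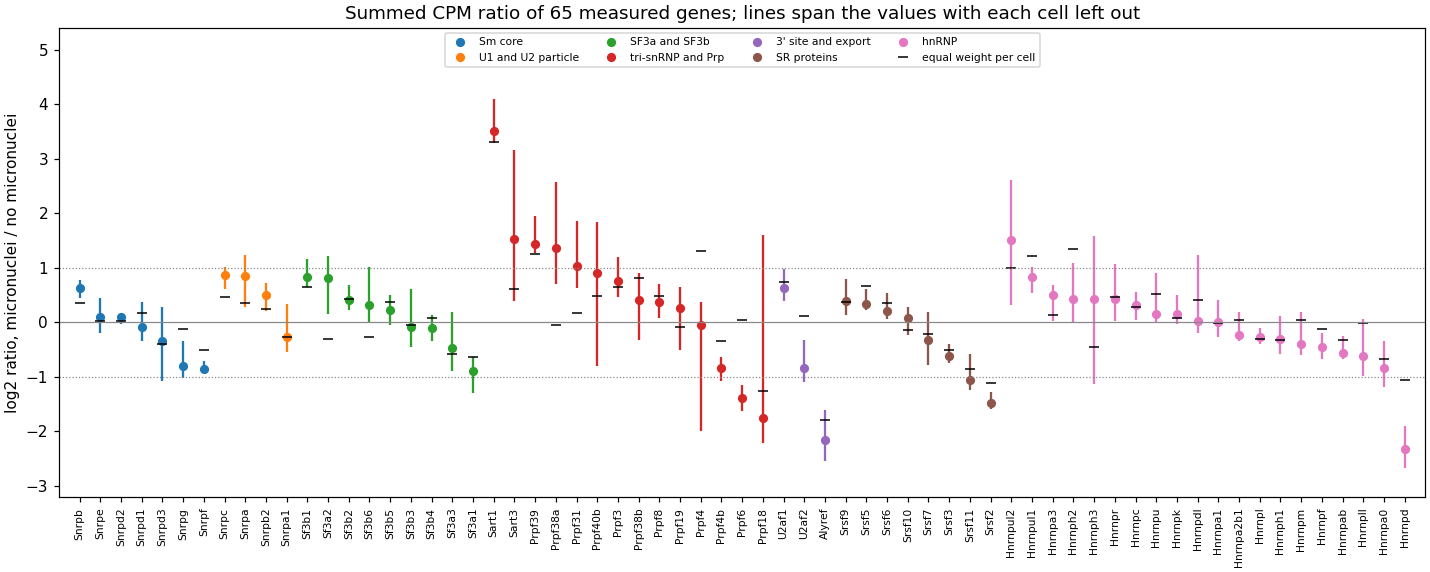
Log2 ratio of summed CPM, micronucleated over other cells, for 65 measured protein-coding members by role; points are the ratio, lines its span with each cell left out, and ticks the ratio with equal weight per cell, with dotted lines at 2-fold. Sart1 lies highest at 3.51, and Hnrnpd lowest at -2.32; the lines of 25 of the 65 members cross 0.

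In the tri-snRNP group, Sart1 showed the largest difference of the set. It encodes the U4/U6.U5 protein that links U4/U6 to U5 in the tri-snRNP, and lies at chr19:5377523-5388703 on the minus strand. In micronucleated cells it ranged from 0 to 249.6 CPM with a median of 30.2, and in cells without micronuclei from 0 to 33.4 CPM with a median of 0. Of the micronucleated cells, 10 lay above the highest cell without micronuclei, while 8 micronucleated and 9 other cells had no read. Summed, Sart1 rose to 35.9 CPM in micronucleated cells (95% Poisson interval 32.5 to 39.6), against 2.24 CPM (1.46 to 3.28) in cells without micronuclei. The log2 ratio was 3.51, with 3.30 at equal weight and 3.29 to 4.09 over the leave-outs. At least 5 reads were found in 13 of 21 micronucleated cells (61.9%, exact interval 38.4 to 81.9%) and in 2 of 14 cells without micronuclei (14.3%, 1.78 to 42.8%). At equal depth these counts were 6 of 17 and 2 of 13 cells, and the log2 ratio of the thinned reads was 2.31. Without the 6 cells of few genes or many mitochondrial reads it was 3.25, and without the cell with macrophage markers 3.59. An antisense transcript overlaps 6.24% of its exon bases, and its reads cannot be told apart without strand.

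Prpf39, whose protein is known as an alternative splicing factor of the U1 snRNP, was the other tri-snRNP and Prp gene that stayed beyond 2-fold in each leave-out and at equal weight. It ranged from 0 to 174 CPM (median 68.2) in micronucleated cells and from 0 to 83.5 CPM (median 13.4) in cells without micronuclei. Above all cells without micronuclei lay 9 micronucleated cells, and 4 micronucleated and 2 other cells had none. Summed, it rose to 64.1 CPM (59.5 to 69.04) in micronucleated cells, against 23.2 CPM (20.5 to 26.1) in cells without micronuclei, a log2 ratio of 1.43 with leave-outs from 1.27 to 1.95. At least 5 reads were found in 11 of 21 micronucleated cells (52.4%) and in 9 of 14 cells without micronuclei (64.3%), opposite in direction to the ratio. The thinned cells gave a log2 ratio of 1.73, with 5 reads in 11 of 17 micronucleated cells and 3 of 13 cells without micronuclei. As mean log2 CPM the difference was 0.73. The gene spans chr12:65036333-65063386 on the plus strand, and exons of Fkbp3 on the opposite strand cover 5.01% of its exon bases.

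Of the 15 tri-snRNP and Prp genes, 10 had a ratio above 0 (66.7%, beside 56.0% of all measured genes). Past 2-fold, 5 rose (33.3%, all genes 22.9%) and 2 fell (13.3%, all genes 14.7%), but the further calls rested on few cells. Sart3 rose to 27.2 CPM in micronucleated cells, against 8.78 CPM in cells without micronuclei (log2 1.52), of which 0.39 was left without micronucleated cell 13; in thinned cells, where it missed the limit for a measured gene, the ratio was -0.19. Prpf38a, a factor needed for activation of the spliceosome, rose to 104 CPM in micronucleated cells, against 39.7 CPM in the others (1.37), yet stood at 0.70 without micronucleated cell 14, at -0.04 with equal weights and at 2.67 without the 6 cells of few genes or many mitochondrial reads. Prpf31, which binds U4 and is mutated in human retinal degeneration, rose to 136 CPM in micronucleated cells, against 65.4 CPM in the others (1.04). It was at 0.63 without micronucleated cell 11, at 0.95 without those 6 cells and at 0.98 without the cell with macrophage markers, each short of 2-fold. A transcript on the opposite strand overlaps 18.1% of Prpf31's exon bases. Prpf6, a bridging protein of the tri-snRNP, fell to 14.0 CPM in micronucleated cells, against 38.3 CPM in cells without micronuclei (-1.39), and equal weights gave 0.04. Prpf18 fell to 18.5 CPM in micronucleated cells, against 65.02 CPM in the others (-1.76), and leaving out cell 8 of the others gave 1.61. Prpf31 and Prpf6 were chosen after their values were seen. Prpf4b, a kinase that acts on tri-snRNP proteins, was at 36.4 CPM in micronucleated cells and 65.4 CPM in the others, a log2 ratio of -0.83 that held its sign (-1.08 to -0.63) and reached -1.08 without the cell with macrophage markers. Without the 6 cells of few genes or many mitochondrial reads, Prpf4 was at -2.33 in place of -0.04 and Prpf40b at 1.05 in place of 0.91. Prpf8, the scaffold of the catalytic centre, stood at 75.1 CPM and 57.5 CPM in cells with and without micronuclei (0.38); it too was chosen after its value was seen.

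Among factors of the 3′ splice site and export, Alyref, the adaptor that hands spliced mRNA to the export receptor, was lower with micronuclei. It lies at chr11:120592121-120598365 on the minus strand. Cell values ran from 0 to 79.7 CPM (median 15.3) in micronucleated cells and from 1.85 to 212 CPM (median 61.6) in cells without micronuclei. One micronucleated cell was above the median of the others, 20 were below it, and 5 were below their lowest cell. Summed, Alyref fell to 13.3 CPM (11.2 to 15.6) in micronucleated cells, against 62.4 CPM (58.0 to 67.1) in cells without micronuclei. The log2 ratio of -2.15 became -1.79 at equal weight and ranged from -2.54 to -1.61 when cells were left out, the last without cell 11 of the others, which held 33.0% of the reads. At least 5 reads were counted in 9 of 21 micronucleated cells (42.9%, 21.8 to 65.98%) and in 13 of 14 cells without micronuclei (92.9%, 66.1 to 99.8%); at equal depth, in 4 of 17 and 9 of 13, with a log2 ratio of -1.54. U2af1 went the other way without reaching 2-fold, at 120.1 CPM in micronucleated cells and 77.2 CPM in the others (log2 0.63, leave-outs 0.39 to 0.99), and U2af2 was at 9.92 CPM and 18.5 CPM in the same groups, its ratio of -0.84 turning to 0.12 at equal weight and moving to -0.24 without the 6 cells of few genes or many mitochondrial reads.

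SR protein genes split evenly, with 4 of 8 measured members above 0 and 4 below. None rose past 2-fold, beside 22.9% of all measured genes, and 2 fell (25%, all genes 14.7%). Srsf2, which encodes SC35, a marker protein of nuclear speckles, ranged from 0 to 296 CPM (median 114) in micronucleated cells and from 52.9 to 653 CPM (median 163) in cells without micronuclei. A total of 7 micronucleated cells lay below the lowest cell without micronuclei and none above the highest. It fell to 126 CPM (120 to 133) in micronucleated cells, against 353 CPM (342 to 364) in the others, with a log2 ratio of -1.47, -1.11 at equal weight and -1.59 to -1.28 over the leave-outs. In the thinned cells it was -0.92, short of 2-fold. Exons of Mettl23 and Mfsd11 on the opposite strand cover 25.3% of Srsf2's exon bases (chr11:116849901-116853094), and without strand their reads cannot be told apart. Srsf11 fell to 234 CPM in micronucleated cells, against 491 CPM in the others (-1.07), but was at -0.58 when cell 7 of the others was left out and at 0.23 as mean log2 CPM. Srsf3, a small SR protein that also serves export, was at 159 CPM in micronucleated cells and 245 CPM in the others (-0.62, leave-outs -0.75 to -0.39). On the upper side, Srsf5 was at 155 CPM and 123 CPM (0.33), Srsf9 at 45.7 CPM and 34.4 CPM (0.40) and Srsf6 at 255 CPM and 220.5 CPM (0.21) in cells with and without micronuclei, each with a held sign.

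The 20 hnRNP genes gave 11 ratios above 0 (55%, beside 56.0% of all measured genes) and 9 below, with 1 past 2-fold each way (5% and 5%, where all genes had 22.9% and 14.7%). Hnrnpd, which encodes the AU-rich element binding protein AUF1, lies at chr5:99955935-99978938 on the minus strand. An antisense transcript overlaps 5.24% of its exon bases. Hnrnpd ranged from 0 to 263 CPM (median 24.8) in micronucleated cells and from 6.06 to 332 CPM (median 66.5) in cells without micronuclei. Of 21 micronucleated cells 18 were below the median of the others, and 3 were below their lowest cell. Hnrnpd fell to 22.5 CPM (19.8 to 25.4) in micronucleated cells, against 116 CPM (110 to 123) in cells without micronuclei, a log2 ratio of -2.32 that was -1.05 with equal weights and -2.66 to -1.90 over the leave-outs. Its relative Hnrnpdl was at 112 CPM and 109.7 CPM in the same groups (log2 0.03). Hnrnpul2 rose to 19.4 CPM in micronucleated cells, against 6.2 CPM in the others (1.5), which was 0.31 without micronucleated cell 11 and 2.57 without the 6 cells of few genes or many mitochondrial reads. Hnrnpul1 was at 42.0 CPM in micronucleated cells and 23.2 CPM in cells without micronuclei, a log2 ratio of 0.83 (leave-outs 0.54 to 1.01) and 1.21 at equal weight, with 7 micronucleated cells above all others. The most abundant hnRNPs had ratios near 0. In cells with and without micronuclei Hnrnpa2b1 was at 476 CPM and 562 CPM (-0.24, or 0.05 at equal weight), Hnrnpk at 519 CPM and 466 CPM (0.16), and Hnrnpa1 at 286 CPM and 285 CPM (0.01).

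**Figure D4:**
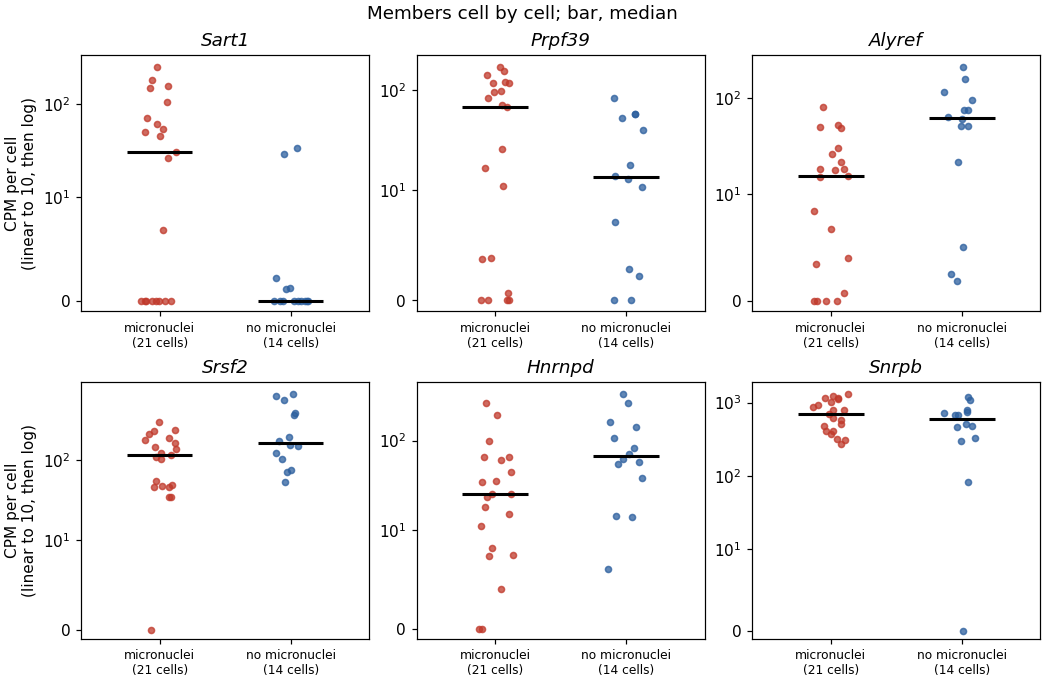
CPM in each cell for 6 members in 21 cells with micronuclei (left) and 14 cells without (right), on an axis that is linear to 10 and logarithmic above; bars are medians. Sart1 has a median of 30.2 CPM with micronuclei and 0 without, Alyref 15.3 and 61.6 CPM, and the groups overlap in every panel.

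No gene of the Sm core, the U1 and U2 particles or SF3a and SF3b, 20 in all, reached 2-fold in either direction, where 37.7% of all measured genes did. That share falls with level, to 23.4% of other genes from 100 to 200 CPM and 9.33% from 200 to 1000 CPM. Snrpb was at 805 CPM in micronucleated cells and 516 CPM in the others (log2 0.64, leave-outs 0.45 to 0.78), and Snrpf at 83.3 CPM and 150.5 CPM in the same groups (-0.85, leave-outs -0.91 to -0.70). Exons of other genes on the opposite strand, mainly of Ccdc38, cover 85.4% of Snrpf's exon bases. The U1 genes Snrpc (62.7 CPM and 33.8 CPM, 0.87) and Snrpa (130.1 CPM and 71.99 CPM, 0.84) were higher in micronucleated cells than in the others, with a held sign, and Snrpa was at 0.29 without micronucleated cell 13. Sf3b1, the large SF3b subunit that clasps the branch point and is often mutated in human blood cancers, was at 362 CPM in micronucleated cells and 203 CPM in cells without micronuclei. Its log2 ratio of 0.83 ranged from 0.64 to 1.17, and 18 of 21 micronucleated cells were above the median of the others. Sf3a1, which joins SF3a to the U2 snRNP, lay at 34.1 CPM in micronucleated cells and 63.9 CPM in the others (-0.89), or -0.39 without the 6 cells of few genes or many mitochondrial reads. Sf3a3, chosen after its values were seen, was at -0.47 and passed 2-fold without those 6 cells (-1.03).

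Further splicing genes were taken from lists outside the set. Of 55 measured other spliceosome components 9 rose and 11 fell past 2-fold (16.4% and 20%, beside the 22.9% and 14.7% of all measured genes), of 32 other splicing regulators 4 and 7, of 6 SR protein kinases 0 and 1, and of 23 exon junction and export genes 1 and 0. In the first list the median log2 ratio was -0.27, but -0.02 at equal weight, 0.02 with scran scaling and 0.35 as mean log2 CPM. All measured genes had 0.15, 0.05, 0.05 and 0.30 in the same order. Xab2, a protein of the Prp19-related complex, rose to 26.6 CPM in micronucleated cells, against 1.03 CPM in the others (3.76), with 77.5% of its reads in micronucleated cell 13 and a log2 ratio of 1.81 without it. The tri-snRNP helicase gene Ddx23 rose to 30.2 CPM in micronucleated cells, against 4.31 CPM in the others (2.56); 42.3% of the reads came from micronucleated cell 11, and leaving it out gave 1.79. The helicase gene Dhx16 rose to 34.01 CPM in micronucleated cells, against 4.22 CPM in the others (2.75); 59.4% of the reads came from micronucleated cell 13, and leaving it out gave 1.46. Ctnnbl1, a binding partner of Cdc5l, fell to 13.2 CPM with micronuclei, against 73.4 CPM without (-2.39, or -1.5 at equal weight). Among regulators, Khdrbs1 (Sam68) rose to 82.2 CPM with micronuclei, against 16.8 CPM without (2.23, or 1.10 at equal weight), and Ewsr1 to 172 CPM, against 80.9 CPM without (1.08, or 0.75 leaving out micronucleated cell 13). The RNA-binding protein gene Rbm10 fell to 18.7 CPM with micronuclei, against 67.95 CPM without (-1.81), and the paraspeckle gene Pspc1 to 7.94 CPM, against 38.6 CPM without (-2.15, or -0.73 at equal weight). In the exon junction list Casc3, a core subunit, rose to 32.5 CPM with micronuclei, against 10.6 CPM without (1.53), or 0.34 at equal weight, and Rnps1 was at 101.5 CPM with and 63.7 CPM without (0.66). Of the SR protein kinases, Srpk1 stood at 226 CPM and 212 CPM (0.09) and Clk1 at 68.1 CPM and 74.7 CPM (-0.13) in cells with and without micronuclei. The kinase that fell was Clk4, at 39.5 CPM with micronuclei and 83.5 CPM without (-1.06, or 1.27 leaving out cell 7 of the others). The other regulators that rose were Taf15 (1.28, or -0.08 leaving out micronucleated cell 13) and Khdrbs3 (1.12, or 0.17 leaving out micronucleated cell 11). The other regulators that fell were Tra2a (-1.82), Syncrip (-1.61), Qk (-1.21), Matr3 (-1.12) and Pcbp2 (-1.18). Leaving out cell 7 of the others gave -0.07 for Tra2a, -0.28 for Syncrip, -0.65 for Qk and -0.89 for Matr3. Leaving out cell 8 of the others gave -0.62 for Pcbp2. All of these and Clk4 were chosen after their values were seen.

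Across cells, more splicing transcripts went with more mitotic transcripts. The members' summed CPM and the summed CPM of 48 genes of the G2 and M phases had a Spearman rho of 0.57 and a Pearson r of 0.63 over 35 cells, as a description with no p, since both are shares of the same library. The rho was 0.42 in 21 micronucleated cells and 0.76 in 14 cells without micronuclei. It was 0.50 without the 2 cells farthest from the median G2 and M sum (micronucleated cell 8 and cell 4 of the others), 0.71 without the 6 cells of few genes or many mitochondrial reads, and 0.57 in the 30 thinned cells. The members' sum had a rho of -0.02 with the total reads and -0.19 with the mitochondrial share. Gene by gene, 53 of 67 members (79.1%) had a rho above 0 with the G2 and M sum, against 60.2% of 8279 other measured genes. Hnrnpa2b1 led at 0.64, followed by Srsf7 (0.56), Prpf4b (0.55) and Srsf3 (0.53), and Prpf39 was lowest at -0.32. The G2 and M sum itself had a median of 1793 CPM in micronucleated cells (221 to 9275) and 2047 CPM in cells without micronuclei (342 to 8046). Srsf7, Prpf4b, Srsf3 and Prpf39 were named here after these values were seen.

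**Figure D5:**
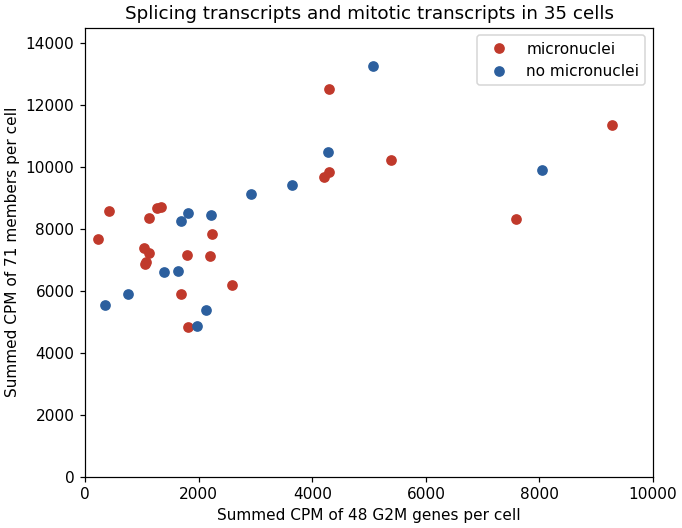
Summed CPM of the 71 members against summed CPM of 48 G2 and M phase genes, 1 point per cell, for 21 cells with and 14 cells without micronuclei. The Spearman rho is 0.42 in micronucleated cells, 0.76 in cells without micronuclei and 0.57 over all 35 cells.

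The genes whose log2 CPM followed the 3 members highest per kilobase of main transcript most closely over the 35 cells differed by member. For Hnrnpa2b1 they were the tubulin gene Tuba1b (rho 0.77), the mitotic cyclin gene Ccnb1 (0.71) and the histone gene H2afz (0.66). For Snrpe they were Cks2 (0.71), H2afz (0.70) and the ribosomal protein gene Rpl35 (0.64), and for Snrpb they were Cnot9 (0.55), Tmem170 (0.54) and Brd3 (0.53). Among themselves, members of the same role had a median rho of 0.09 over 389 pairs and members of different roles 0.08 over 1822 pairs, while all pairs of measured genes had 0.07. The medians were 0.20 within the Sm core and 0.27 within the 4 U1 and U2 genes. Snrpe and the processed pseudogene entry Snrpert, which can share reads, had a rho of 0.58.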

How the data were processed

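The deposited table holds raw read counts per gene, made by the authors with the aligner STAR on GRCm38.p5, per the submitters' processing notes; Rsubread counting and a scater filter on spike-in share, genes and counts are recorded in the deposited phenotype table. Versions, strand use and the handling of reads with several matches were not given in the sources used here, so reads of overlapping genes and of near-identical copies cannot be told apart. The table has 19147 features, of which 62 are ERCC spike-ins (at most 7.39% of a cell's reads) and stayed out of all totals; 827 gene entries had no read. All 35 cells were used, no doublet caller was run, 0 of 595 pairs of cells were identical, and 0 columns of other samples were left unused.

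From these counts CPM were computed per cell and per group (11084425 reads with micronuclei, 11612303 without). The ratio script was tested on simulated data. Summed CPM of each group have exact 95% Poisson intervals. These cover counting error only, since PCR copies carry no identifiers and are not separate molecules. The log2 ratio, with 1 CPM added, has no interval and is given with its range over the leave-outs. Shares of cells have Clopper-Pearson intervals, which take cells as independent draws, although the cells are not replicates of a group. Main transcripts are APPRIS principal ones of the GENCODE annotation of GRCm38, which also gives positions. Thinning kept 30 cells. Alternatives were TMM (edgeR 4.0.16, factors 1.05 and 0.952) and scran 1.30.0 scaling, another added value (0.1 or 5 CPM), all genes with a read or a higher limit (20 CPM and 10 cells), thinning, equal weights, mean log2 CPM, read minimums of 1 and 10, and each cell left out; leaving out cells with macrophage markers (at least 3 of 10) or of low quality was added after seeing the data. Values were computed with R 4.3.3 and Python 3.11.15 (scipy 1.17.1, numpy 2.4.6, pandas 2.3.3) and plotted with matplotlib 3.10.9.

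Members and lists were chosen with earlier results of these data known. Genes are named by rule: among members that reach 20 CPM in a group and 5 reads in 50% of the cells of the higher group, 8 in each direction by the smallest absolute log2 ratio over summed reads, equal weights and all leave-outs; the 10 highest per kilobase; the highest and lowest of each role; the 5 lowest and 5 highest CVs; related pairs; members under the filter; the 3 genes most like each of the 3 highest members; and up to 4 genes of each other list. One item of the set is counted but not reported here by name. Further genes are said to be chosen after their values were seen; the 12 past 2-fold are all named, as are those with reads in every cell.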

Additional observations from a re-analysis of the deposited data

How the results depend on the processing

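The median log2 ratio of the 67 measured members was 0.10. Its order-statistic interval, -0.11 to 0.33, describes spread between genes of the same cells and does not measure error of the group contrast. The median stayed near 0 under every scaling, added CPM, filter and thinning tried, from -0.04 (TMM, and also without the 6 low-quality cells) to 0.12. It was 0.43 as mean log2 CPM, where all measured genes had 0.30. Leaving out 1 cell gave 0.03 (without micronucleated cell 13) to 0.21. The counts past 2-fold, 6 higher and 6 lower, were 4 to 9 and 4 to 8 over the leave-outs. Under the stricter filter 3 were higher; the lower ones numbered 3 in thinned cells and 3 as mean log2 CPM. Without the cell with macrophage markers 5 were higher and 7 lower, and without the 6 low-quality cells 6 and 8. Signs held upward numbered 15 with TMM in place of 23, without the share of all measured genes to set beside it. Directions turned for 5 called genes. Sart3 was at -0.19 in thinned cells, where it missed the limit for a measured gene. Prpf18 was at 0.43 as mean log2 CPM and at -2.22 to 1.61 over the leave-outs; Prpf6 was at 0.040 with scran, 0.045 with equal weight and 0.079 as mean log2 CPM; Srsf11 was at 0.23 as mean log2 CPM; Prpf38a was at -0.21 with scran, -0.011 in thinned cells and -0.041 with equal weight. The cause was not tested. The difference of the median number of members detected in thinned cells, 2, ranged over the leave-outs from 1 to 2.5, was 4 and 1 with minimums of 1 and 10 reads, and was -0.5 without thinning, and that of the summed CPM ranged from -620.8 to -277.2. No paired analysis was possible because replicate numbers are accession order only and each group counts as 1 sample. With 14 and 21 cells and no replicate cultures, differences between cells, cultures and groups cannot be told apart, and low members in shallow cells are limited by depth.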
